A study of Homo sapiens with 6 samples.

Results

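Open chromatin at the ends of long non-coding RNA (lncRNA) genes was examined in H1 cells, an established line of human embryonic stem cells, by ATAC-seq, in which the Tn5 transposase inserts sequencing adapters where DNA is accessible. All 6 libraries came from cells that had received a lentiviral short hairpin RNA and puromycin selection, with about 50000 cells per library. Of these, 2 carried hairpin shHNRNPU #1, 2 carried shHNRNPU #2, both directed against the nuclear RNA-binding protein HNRNPU, and 2 carried the control hairpin shLUC. Each library is a list of summits, the single base of strongest signal in each peak, with a score. The score was read as −log10 of the q-value that the peak received in its own list, from the layout of the lists and their lowest values of 1.30 to 1.31, since the labels do not state it. The labels number the libraries of a group as repeats 1 and 2 and do not say whether these were separate cultures, so p-values measure only the spread between these libraries. The lists carry no read counts, so sequencing depth is unknown and the knockdown itself cannot be checked.

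A summit was kept when it lay within 2000 bp of either end of a lncRNA gene in RefSeq (GRCh38.p14), over 2000 bp from every end of a protein-coding gene, and outside protein-coding gene bodies. This rule kept 16207 of 356720 summits (4.54%), and they touched 4165 of the 18303 lncRNA genes of the table. A lncRNA gene with such a summit in a library is called open there. The word means only that a peak was called, and a gene that is not open had no summit that met the rule. Unless a locus is named, a gene's score or percentile in a library is that of its best such summit there. That summit can differ between libraries.

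LncRNAs are transcripts with little or no coding potential that are made by RNA polymerase II from promoters like those of protein-coding genes. Many stay in the nucleus, where some act on chromatin or build nuclear bodies, and others are the precursors from which microRNAs or small nucleolar RNAs are cut. HNRNPU, also called SAF-A, binds nuclear RNA, including lncRNAs, and is an abundant component of the nuclear matrix. LncRNA genes are often active in few cell types. No other cell type was measured here, so whether the open set marks this line was not tested. The lists matched the labelled cell type in that 7 of 8 pluripotency markers, POU5F1, SOX2, NANOG, DNMT3B, LIN28A, SALL4 and ZFP42, had a summit within 2000 bp of an end in all 6 libraries, whereas TDGF1 had none in any. Of 13 marker genes of other cell types, 6 also had a summit in all 6 libraries, 4 had none, and the rest had one in 4 libraries, so a summit at a gene end did not by itself separate cell types.

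The promoters of 7 genes are shown because the summits fell inside them: 4 genes open in every library, 2 open in the control libraries only, and 1 whose score was higher with both HNRNPU hairpins under an alternative fit. Each line gives 300 bases from RefSeq on the gene's own strand, 250 before and 50 after the start. Capitals mark matches on either strand to ATTTGCAT (the octamer of POU factors), GGGCGG (the GC box), CCAAT or TATAAA, the core of the CTCF motif was searched as well and matched in none of the 7.
MALAT1, chr11:65497488-65497787 (GRCh38.p14, plus strand): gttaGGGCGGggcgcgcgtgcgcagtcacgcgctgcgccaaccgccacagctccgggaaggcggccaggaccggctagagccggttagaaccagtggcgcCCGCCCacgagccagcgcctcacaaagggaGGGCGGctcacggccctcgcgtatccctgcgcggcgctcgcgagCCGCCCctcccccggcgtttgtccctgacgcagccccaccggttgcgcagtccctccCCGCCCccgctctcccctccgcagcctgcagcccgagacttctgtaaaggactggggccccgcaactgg
DANCR, chr4:52712144-52712443 (GRCh38.p14, plus strand): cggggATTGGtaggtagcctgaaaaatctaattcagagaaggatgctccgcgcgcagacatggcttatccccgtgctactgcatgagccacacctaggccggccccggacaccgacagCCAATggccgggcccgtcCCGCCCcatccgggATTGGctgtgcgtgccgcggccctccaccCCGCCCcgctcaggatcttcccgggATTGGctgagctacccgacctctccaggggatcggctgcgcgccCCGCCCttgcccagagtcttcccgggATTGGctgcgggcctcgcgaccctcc
NORAD, chr20:36050911-36051210 (GRCh38.p14, minus strand): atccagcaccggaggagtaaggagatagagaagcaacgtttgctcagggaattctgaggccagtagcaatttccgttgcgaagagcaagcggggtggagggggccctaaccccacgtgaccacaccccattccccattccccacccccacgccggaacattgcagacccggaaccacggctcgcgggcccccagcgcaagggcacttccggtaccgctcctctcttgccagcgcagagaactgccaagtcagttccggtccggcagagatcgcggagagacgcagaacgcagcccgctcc
LINC02606, chr1:9428947-9429246 (GRCh38.p14, minus strand): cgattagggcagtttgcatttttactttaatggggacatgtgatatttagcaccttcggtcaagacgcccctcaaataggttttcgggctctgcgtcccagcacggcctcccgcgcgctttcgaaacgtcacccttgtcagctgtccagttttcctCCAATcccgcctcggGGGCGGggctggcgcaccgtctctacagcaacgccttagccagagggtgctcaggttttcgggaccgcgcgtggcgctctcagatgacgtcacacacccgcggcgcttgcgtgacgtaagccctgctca
EWSAT1, chr15:69080600-69080899 (GRCh38.p14, plus strand): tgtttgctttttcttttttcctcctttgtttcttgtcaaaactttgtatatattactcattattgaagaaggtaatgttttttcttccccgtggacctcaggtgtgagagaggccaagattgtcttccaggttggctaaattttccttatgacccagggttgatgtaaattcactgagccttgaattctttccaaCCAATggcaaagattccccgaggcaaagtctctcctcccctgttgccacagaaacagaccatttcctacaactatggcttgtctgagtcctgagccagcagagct
LOC105370462, chr14:40318112-40318411 (GRCh38.p14, plus strand): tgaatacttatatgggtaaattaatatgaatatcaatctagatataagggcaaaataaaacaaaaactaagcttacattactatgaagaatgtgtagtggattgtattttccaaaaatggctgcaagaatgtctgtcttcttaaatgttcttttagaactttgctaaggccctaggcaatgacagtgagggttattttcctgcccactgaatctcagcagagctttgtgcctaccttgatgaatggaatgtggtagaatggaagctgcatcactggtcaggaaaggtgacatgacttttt
LINC01549, chr21:17438640-17438939 (GRCh38.p14, plus strand): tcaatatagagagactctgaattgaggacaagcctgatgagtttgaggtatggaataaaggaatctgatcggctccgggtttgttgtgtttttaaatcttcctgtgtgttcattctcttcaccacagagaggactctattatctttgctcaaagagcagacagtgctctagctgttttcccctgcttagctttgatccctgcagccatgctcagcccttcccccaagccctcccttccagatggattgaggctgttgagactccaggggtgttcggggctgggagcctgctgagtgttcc

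MALAT1 is an abundant nuclear RNA of splicing speckles. Its promoter held 5 GC boxes and was 73.7% G+C, and the summits of all 6 libraries lay between bases 51 and 86 of the printed run. DANCR, a lncRNA known for holding progenitor cells undifferentiated, had 5 CCAAT matches and 3 GC boxes, with summits of all 6 libraries between bases 174 and 259. NORAD, a cytoplasmic RNA that binds PUMILIO proteins, had none of the 5 motifs, and its summits lay between bases 226 and 243. LINC02606 had 1 GC box and 1 CCAAT match, and its summits lay between bases 211 and 292. EWSAT1, named for Ewing sarcoma, had 1 CCAAT match at 42.7% G+C, with the summits of the 2 shLUC libraries between bases 218 and 281. LOC105370462 had no match and was 36.3% G+C. LINC01549 had no match either, at 49.3% G+C.

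Over all 35116 promoters of the table, 45.0% held GGGCGG, 34.6% CCAAT, 11.5% TATAAA, 1.77% ATTTGCAT and 0.225% the CTCF core. Among lncRNA genes open in all 6 libraries, 1029 of 1515 (67.9%) had a promoter sequence. That is below 80%, so a comparison of base composition or motifs for this set is void.

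Summits at lncRNA gene ends took a slightly larger share of every shHNRNPU list than of either shLUC list. The share was 4.66% and 4.63% with shHNRNPU #1, 4.61% and 4.67% with shHNRNPU #2, and 4.34% and 4.37% with shLUC. Means were 4.65% ± 0.0268 (SD, n = 4) for the HNRNPU hairpins and 4.35% ± 0.0179 (SD, n = 2) for the control. The groups did not overlap, and the gap of 0.293 percentage points was larger than the spread within either group. A two-sided exact permutation test, with 15 ways to pick the 2 controls, gave p = 0.133, the smallest p that the design allows, and 0.2 after Benjamini-Hochberg adjustment over the 3 measures per library. The 95% Wilson intervals of single libraries, which cover counting error only, ran from 4.18% at the lowest to 4.86% at the highest.

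**Figure D1:**
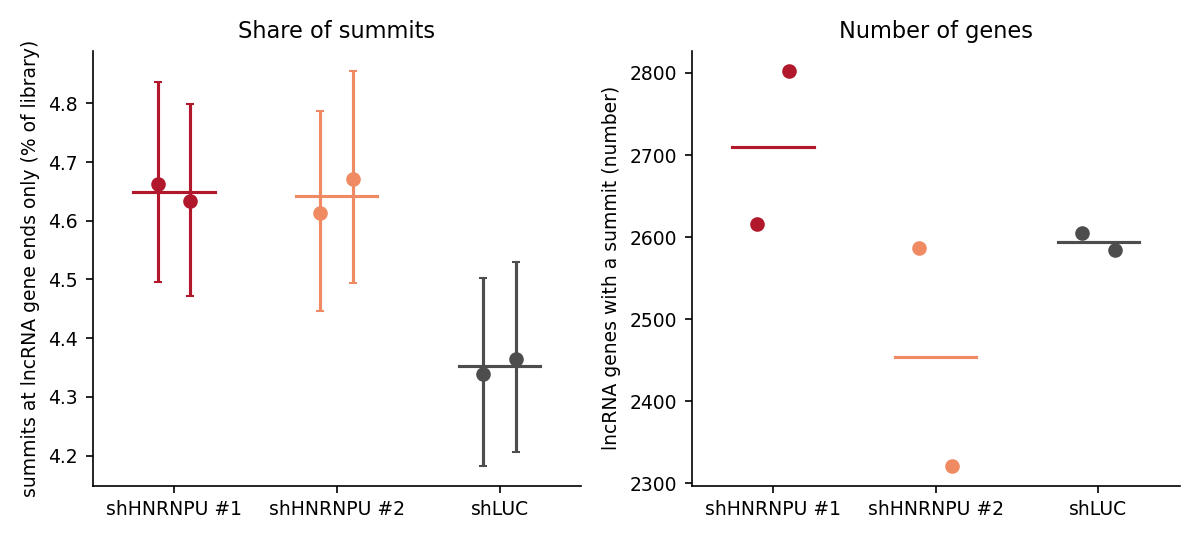
Share of each library's summits at lncRNA gene ends only, in percent with 95% Wilson intervals (left), and number of lncRNA genes with such a summit (right), for 2 libraries per hairpin with horizontal lines at group means; neither vertical axis starts at 0. The 4 shHNRNPU shares lie between 4.61% and 4.67%, above both shLUC shares, while the gene numbers overlap.

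The number of open lncRNA genes overlapped between the groups. It was 2616 and 2803 with shHNRNPU #1, 2587 and 2321 with shHNRNPU #2, and 2605 and 2584 with shLUC. The shLUC values lay inside the shHNRNPU range, and the difference of means was -12.75 genes (exact permutation test, p = 0.933). The total number of summits varied alongside, from 52168 in shHNRNPU #2 repeat 2, which had the fewest lncRNA genes, to 63519 in shHNRNPU #1 repeat 2, which had the most. Without shHNRNPU #2 replicate 2 the difference was 74.2 genes in the other direction. With all lists brought to one size, the means were 2364 and 2284.5 genes, and all 4 shHNRNPU libraries stood above both shLUC libraries (exact permutation test, p = 0.133). The median percentile by score of these summits within their own list was 49.2 and 49.9 with shHNRNPU #1, 49.9 and 49.2 with shHNRNPU #2, and 50.1 and 50.2 with shLUC. It was lower in all 4 shHNRNPU libraries, with a difference of means of -0.639 (exact permutation test, p = 0.133; adjusted 0.2). The direction rests on the distance limit: within 1000 bp of a gene end it was higher in all 4, by 0.871 (exact permutation test, p = 0.133). After the lists were brought to one size it was 0.041, with overlap (exact permutation test, p = 0.933).

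Of the other classes of position, protein-coding gene bodies overlapped between the groups, at 33.7% ± 0.79 (SD, n = 4) of the shHNRNPU lists and 33.9% ± 0.0279 (SD, n = 2) of the shLUC lists (exact permutation test, p = 0.933). Summits within 2000 bp of a protein-coding gene end took 28.4% ± 1.66 (SD, n = 4) of the shHNRNPU lists and 26.3% ± 0.393 (SD, n = 2) of the shLUC lists, a ratio of means of 1.08, beside 1.07 for lncRNA gene ends. Summits inside lncRNA genes but away from their ends took 6.75% ± 0.346 (SD, n = 4) and 7.29% ± 0.0863 (SD, n = 2), a ratio of 0.927. Summits away from both kinds of gene took 26.5% ± 0.67 (SD, n = 4) and 28.1% ± 0.353 (SD, n = 2), a ratio of 0.942. These did not overlap between the groups either (exact permutation test, p = 0.133). The number of lncRNA-end summits per protein-coding-end summit was 0.164 ± 0.00877 (SD, n = 4) under the HNRNPU hairpins and 0.165 ± 0.00179 (SD, n = 2) under shLUC, a difference of -0.00141 within the spread (exact permutation test, p = 0.933). Per summit inside lncRNA gene bodies it was 0.689 ± 0.04 (SD, n = 4) and 0.597 ± 0.00952 (SD, n = 2), without overlap (exact permutation test, p = 0.133). Ends of both kinds of gene thus took a larger share of the shHNRNPU lists.

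Counted by the rule, lncRNA genes were open in all 6 libraries less often than protein-coding genes, to which the rule was not applied. Of the 4165 lncRNA genes, 1515 (36.4%) were open in all 6 libraries and 1078 (25.9%) in 1 library. Of 15977 protein-coding genes with a summit within 2000 bp of an end, 13719 (85.9%) had one in all 6 libraries and 645 (4.04%) in 1. Over genes of any biotype the share open in all 6 was 71.0%. For these and for protein-coding genes any summit within 2000 bp of an end counted, so the gene shares are not like for like. How much of the gap comes from the rule was not tested. Of loci, which are summits matched within 250 bp, 22.05% at lncRNA gene ends were present in all 6 libraries. The share was 40.58% at protein-coding gene ends and 20.73% over all loci. Genes with few libraries were those with weak peaks: the lowest percentile over the holding libraries had a median of 52.7 for genes open in all 6 and 14.9 for genes open in 1.

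**Figure D2:**
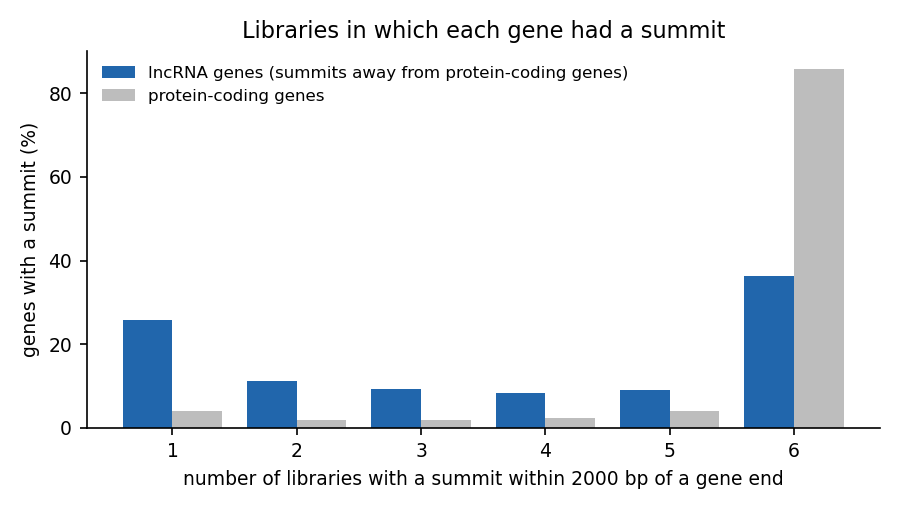
Percentage of genes with a summit that had it in 1 to 6 libraries, for 4165 lncRNA genes (blue) and 15977 protein-coding genes (grey). Only summits away from protein-coding genes count for the lncRNA genes, and any summit within 2000 bp of an end for the protein-coding genes. In all 6 libraries stand 36.4% of the lncRNA and 85.9% of the protein-coding genes.

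The genes open in all 6 libraries carried their summits close to the gene end. The distance from the best summit to the nearest end had a median of 401 bp, against 799 bp for genes open in 1 library. Strand was known for 1029 of the 1515 genes, so the following holds for those genes only. Of them, 545 (53.0%) had the best summit within 500 bp of the start, against 183 of 632 (29.0%) of the genes open in 1 library. Summits within 2000 bp of a start were found at 889 genes open in all 6, and 52.4% of these summits lay within 300 bp. Their median offset was -3 bp. At 1078 genes open in 1 to 5 libraries the share within 300 bp, counted in the same way, was 38.0%. In each library, summits near the start alone outnumbered those near the far end alone, at 59.3% to 62.4% against 25.3% to 27.6%. The share at the start overlapped between groups, at 60.4% ± 1.36 (SD, n = 4) for the HNRNPU hairpins and 60.6% ± 0.142 (SD, n = 2) for the control (exact permutation test, p = 0.8). The share at the far end did not overlap, at 27.2%, 27.3%, 27.0% and 25.3% with shHNRNPU and 27.5% and 27.6% with shLUC. The means were 26.7% ± 0.952 (SD, n = 4) and 27.6% ± 0.0563 (SD, n = 2; exact permutation test, p = 0.133). Start-site summits were also stronger, with median percentiles of 53.7 to 57.2 against 37.8 to 44.7 at the far end. At the far end the 4 shHNRNPU medians, 37.8 to 42.0, lay below the shLUC medians of 44.4 and 44.7.

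**Figure D3:**
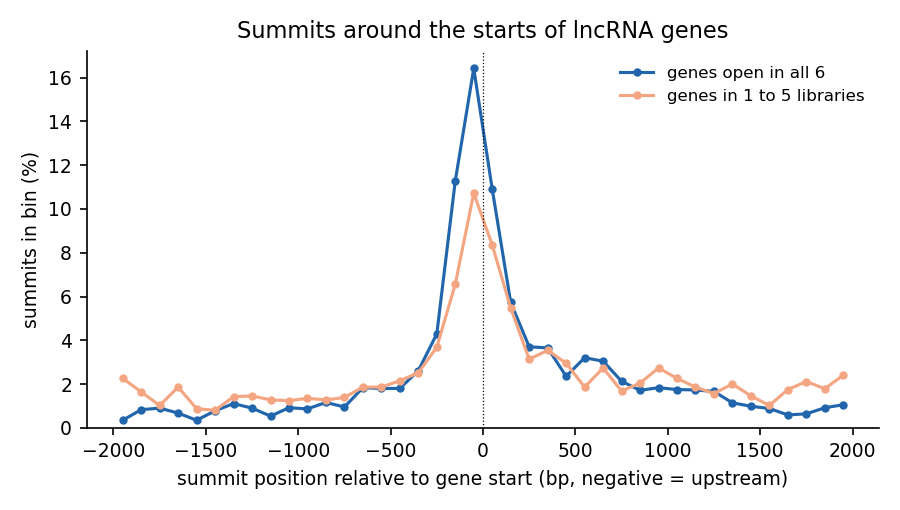
Percentage of summits in bins of 100 bp around the starts of lncRNA genes with known strand, by distance in bp (negative is upstream), for genes open in all 6 libraries (blue) and in 1 to 5 libraries (orange). Both lines peak at the start, where the 300 bp on either side hold 52.4% and 38.0% of the summits within 2000 bp of a start.

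By the kind of symbol, 389 of the 1515 genes were LINC genes, which was 16.8% of all LINC genes of the table, and 882 were uncharacterised LOC genes, which was 7.12% of that class. Antisense genes contributed 84 (4.10%) and divergent transcripts 19 (3.21%), classes in which 10.1% and 10.8% of genes had any summit that met the rule. The 1515 genes stood on 1416 distinct sets of summits, since 312 of them shared a summit with another lncRNA gene.

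The 10 genes with the strongest summits in every library were LINC00663, LOC102723696, LOC105377308, CHASERR, LINC02018, LOC105372309, SMIM2, LINC02606, LOC100630923 and LOC124909432. In each, the summit stood above the 98th percentile of all 6 lists. CHASERR, a lncRNA transcribed next to the chromatin remodeller gene CHD2 and known to restrain it, had scores of 82.2, 100.6, 64.1 and 93.9 in the shHNRNPU libraries and 78.0 and 68.7 in the shLUC libraries, with its best summit 333 bp upstream of the start. LINC02606 scored 99.0, 88.6, 56.7 and 75.5 with shHNRNPU and 76.5 and 67.2 with shLUC, with its best summit 40 bp upstream of the start printed above. In both genes the groups overlapped. SMIM2 scored 69.5, 77.5, 77.7 and 77.1 with shHNRNPU and 77.6 and 74.1 with shLUC, and carried its summit 1090 bp beyond the gene's far end. LINC00663 scored 97.3, 94.7, 92.6 and 106 with shHNRNPU and 83.2 and 74.3 with shLUC, without overlap.

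Of 11 lncRNA genes on a list of pluripotency RNAs, 9 were open in some library and 3 in all 6. DANCR was the strongest, at 69.6, 62.6, 56.1 and 70.7 with shHNRNPU and 59.2 and 66.1 with shLUC. LNCPRESS2, named as a p53-regulated lncRNA of embryonic stem cells, scored 17.7, 36.3, 17.9 and 18.2 with shHNRNPU and 32.3 and 32.2 with shLUC, so shHNRNPU #1 repeat 2 stood with the controls. LINC00678 scored 29.1, 21.1, 20.1 and 29.5 against 26.0 and 30.4, with overlap. LNCPRESS1 was open in 5 libraries. OIP5-AS1 was open in all but shLUC repeat 2, with scores of 24.7 to 41.3. Its best summit stood 2020 bp from an end of the protein-coding gene CHP1, close to the limit of 2000 bp. Whether shLUC repeat 2 had a summit just inside that limit was not tested. LINC-ROR, described as a regulator of pluripotency factors, had a summit in 1 library, shLUC repeat 1, with a score of 6.49. ESRG and MIR302CHG had summits only near protein-coding genes.

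Of 13 genes on a list of nuclear and chromatin lncRNAs, 8 were open in all 6 libraries: FIRRE, MALAT1, NEAT1, NORAD, JPX, FTX, PVT1 and LINC00667. The list includes NORAD although its RNA is cytoplasmic. MALAT1 scored 89.9, 95.7, 57.2 and 74.3 with shHNRNPU and 58.9 and 51.5 with shLUC, so the raw scores overlapped. FIRRE, an X-linked RNA that binds HNRNPU, scored 19.9, 17.6, 29.1 and 28.1 with shHNRNPU and 20.6 and 16.8 with shLUC, with overlap. NEAT1, the scaffold of paraspeckles, scored 18.9, 14.1, 12.8 and 31.6 against 18.7 and 22.8, also with overlap. NORAD scored 29.7, 21.2, 23.04 and 23.9 against 28.4 and 34.2, where shHNRNPU #1 repeat 1 lay between the controls. PVT1, a lncRNA beside MYC, scored 18.9, 21.96, 13.2 and 12.8 with shHNRNPU and 7.40 and 5.26 with shLUC, without overlap. No locus at its best summit was held by all 6 libraries, so these scores may come from different peaks. MEG3 was open in 4 libraries, H19 had no summit, and 3 others had summits only near protein-coding genes.

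Of 23 lncRNA genes tied to later lineages, 11 were open in some library and 2 in all 6, MIR9-2HG and BANCR. A further 11 had summits only near protein-coding genes, which the rule leaves out, and 1 had no summit. Among those 11, FENDRR, SOX21-AS1, LHX1-DT, HAND2-AS1, GATA6-AS1, GATA3-AS1, FOXD3-AS1 and MEIS1-AS3 had such summits in all 6 libraries. BANCR, known from melanoma, scored 10.9, 7.67, 7.57 and 8.36 with shHNRNPU and 15.7 and 13.7 with shLUC, all 4 below both controls. Of 32 small nucleolar RNA hosts, 11 were open in all 6 libraries: SNHG5, SNHG11, SNHG12, SNHG15, SNHG16, SNHG21, SNHG26, SNHG30, SNHG32, SNHG33 and GAS5. GAS5 was open only by weak summits, with scores of 2.06 to 6.08 at percentiles 2.14 to 44.0. Its best summit lay 1349 bp beyond the gene's far end. A further 18 hosts had summits only near protein-coding genes. SNHG33 scored 70.8, 51.7, 53.5 and 57.5 with shHNRNPU and 48.0 and 50.6 with shLUC, and SNHG5 scored 53.0, 62.6, 44.4 and 59.9 against 59.0 and 48.2.

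Of 88 microRNA hosts, 43 were open in some library and 25 in all 6. A further 17 had summits only near protein-coding genes and 28 had no summit. The highest score in a single library belonged to MIRLET7A1HG, which carries let-7 microRNAs that restrain stem cell genes such as LIN28A, at 99.1, 82.3, 48.1 and 74.3 with shHNRNPU and 68.0 and 69.8 with shLUC. DLEU2, the host of miR-15a and miR-16-1, scored 29.1, 19.8, 15.5 and 25.8 with shHNRNPU and 8.09 and 11.0 with shLUC, so all 4 stood above both controls. The 5′-arm let-7 microRNAs of the first host and miR-15a-5p and miR-16-5p of the second, a choice among the mature microRNAs of both, are given from RefSeq to show their shared seeds, with the seed (bases 2 to 8) in capitals. The let-7 members share 1 seed, and miR-15a-5p and miR-16-5p share another.
hsa-let-7a-5p: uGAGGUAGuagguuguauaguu
hsa-let-7f-5p: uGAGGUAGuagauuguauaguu
hsa-let-7d-5p: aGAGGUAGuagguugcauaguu
hsa-miR-15a-5p: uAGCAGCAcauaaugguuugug
hsa-miR-16-5p: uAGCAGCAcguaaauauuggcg

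Of the 48 list genes open in all 6 libraries, 7 (14.6%) had percentiles by score in the 4 shHNRNPU libraries that all exceeded both shLUC values and 4 (8.33%) had lower ones throughout. The higher ones were MALAT1, PVT1, MIR193BHG, MIR2052HG, MIR34AHG, MIR7-3HG and DLEU2, and the lower ones NORAD, BANCR, MIR3663HG and SNHG12. These are values of the best summit per library, which need not be the same peak. At the MIR34AHG locus held by all 6 libraries the scores overlapped, with 6.89 in shHNRNPU #2 repeat 2 and 9.20 in shLUC repeat 1. PVT1, MIR193BHG and MIR2052HG had no locus at their best summit that all 6 libraries held. Over all 25519 loci present in all 6 libraries, 10.9% were higher and 13.9% lower in this way. Over the 1515 lncRNA genes open in all 6, 175 (11.6%) were higher and 178 (11.7%) lower, against 14.9% and 7.09% of 13719 protein-coding genes. The lncRNA shares, which count genes, are near those of all loci.

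A set of 53 lncRNA genes was open in both shLUC libraries and in no shHNRNPU library. This was 1.27% of the 4165 genes, beside 1.93% of 123131 loci over the genome, 81 of the 5398 loci at lncRNA gene ends, 0.624% of genes of any biotype and 0.207% of protein-coding genes. The summits of the 53 genes were weak beside those of genes open in all 6, with a median lowest percentile of 18.6 against 52.7. For all genes open in 2 libraries the median was 12.5. Of the 53, 7 stood above the 50th percentile in both libraries. No test was made of these shares. In 4 of the 53 genes a shHNRNPU library had a summit at the gene end that failed the rule. Leaving out a library drops a condition, so the count can only stay or rise. It was 84 without shHNRNPU #1 replicate 2, 266 without shLUC replicate 1 and 273 without shLUC replicate 2. The genes depend on the score limit: at a score of at least 5 there were 42, of which 14 were among the 53, and with scores above each list's median 48, of which 7 were.

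The strongest of the 53 was LOC105370082, with scores of 16.7 and 19.7 in shLUC repeats 1 and 2, at percentiles 77.8 and 83.6. The nearest summit of a shHNRNPU library was 5160 bp away. TMEM212-AS1 scored 12.8 and 11.6, LINC01751 scored 12.7 and 11.2, LOC124904501 scored 11.7 and 11.1, and LINC01601 scored 11.2 and 11.6. EWSAT1 scored 7.85 and 9.69, with its best summit 30 bp inside the start printed above, and LOC105370462 scored 7.18 and 6.82 at 40 bp inside its start. These 7 genes stood between percentiles 47.1 and 83.6 of the control lists, and the nearest summit of a shHNRNPU library was over 5000 bp from each.

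A set of 56 lncRNA genes was open in all 4 shHNRNPU libraries and in neither shLUC library. This was 1.34% of the 4165 genes. Counted by locus, the share was 0.88% of all loci and 1.30% (70) of the 5398 loci at lncRNA gene ends. With any summit within 2000 bp of an end counted, it was 0.651% of genes of any biotype and 0.463% of protein-coding genes. The median lowest percentile of the 56 was 19.6, beside 16.3 for all genes open in 4 libraries, and 2 of the 56 stood above the 50th percentile throughout. In 7 of the 56 a shLUC library had a summit at the gene end that failed the rule. At a score of at least 5 there were 46 such genes, of which 14 were among the 56, and with scores above each list's median 33, of which 2 were. With a library left out the count can again only stay or rise. It was 91 without shHNRNPU #2 replicate 2, 141 without shLUC replicate 1 and 128 without shLUC replicate 2. LOC124904193 had the highest lowest percentile, with scores of 8.70, 9.50, 11.5 and 10.1 in the order #1 repeats 1 and 2, then #2 repeats 1 and 2. MEG9, a lncRNA of the imprinted DLK1-MEG3 cluster, followed with 11.1, 13.7, 6.99 and 9.50, from a summit 507 bp from its end that it shared with another lncRNA gene. LINC00310 scored 9.31, 9.71, 10.6 and 7.66, and TSHZ2-AS1 scored 13.3, 12.1, 6.09 and 9.53. LOC124902702 was counted although a shLUC summit lay 48 bp from its own, because its summit stood 1976 bp from the gene end and the control summit fell outside the limit.

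**Figure D4:**
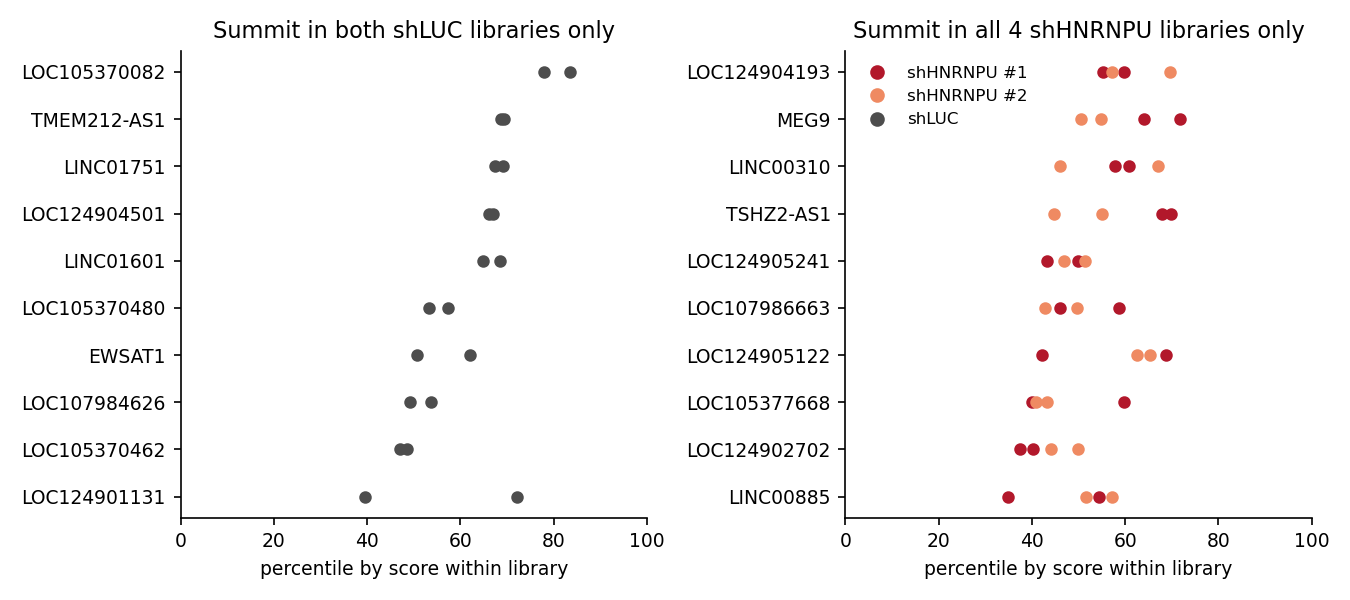
Percentile by score within each library for the 10 strongest lncRNA genes open in both shLUC libraries only (left) and the 10 strongest open in all 4 shHNRNPU libraries only (right); each point is 1 library, coloured by hairpin, and a library without a summit has no point. The highest of these genes, LOC105370082, stands at percentiles 77.8 and 83.6.

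Between the hairpins, 119 lncRNA genes (2.86%) were open in both shHNRNPU #1 libraries and in neither of #2, and 47 (1.13%) the other way. Over all loci the shares were 3.13% and 1.67%. Shares of all loci, here and below, count loci matched within 250 bp and not genes, so the units differ. The #1 lists were the longer ones, with 59055 and 63519 summits against 58414 and 52168. Against both shLUC libraries, shHNRNPU #1 lacked 96 genes (2.30%), beside 3.53% of all loci, and added 157 (3.77%), beside 3.62%. For shHNRNPU #2, 136 genes were lacking (3.27%), beside 4.05% of all loci, and 101 were added (2.42%), beside 2.4%. None of the genes of the 5 lists was among the 53 or the 56. Of the genes with known strand that were open in control libraries only, 8 of 37 (21.6%) had the best summit within 500 bp of the start. Of those open with shHNRNPU only, 7 of 38 (18.4%) did. The share was 53.0% for genes open in all 6, 29.0% for genes open in 1 library and 38.5% for all genes of the rule.

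At loci held by all 6 libraries the scores themselves were compared after log2 transformation and quantile normalisation, with limma, over 25519 loci of which 1190 met the rule. A difference is shHNRNPU minus shLUC on the log2 score scale, which is not a fold of accessibility. No locus passed an adjusted p of 0.05 (limma, Benjamini-Hochberg; 0% of all loci), and the lowest adjusted p at lncRNA gene ends was 0.127. At an unadjusted p under 0.05 stood 195 of the 1190 loci, 95 higher and 100 lower, beside 7.19% higher and 7.48% lower of all loci. The contrast of hairpin #1 with hairpin #2 also called 0 loci (0% of all loci; limma), with 64 of the 1190 at an unadjusted p under 0.05, beside 5.12% of all loci. The median difference was 0.01 at lncRNA gene ends, 0.11 at protein-coding gene ends and -0.14 inside lncRNA genes away from their ends, and 0.01 over all loci.

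Of 45 named genes with 1 shared locus, 4 stood at an unadjusted p under 0.05 (limma), beside 14.7% of all loci. MIR3663HG differed by -1.09 ± 0.30 (SE; limma adjusted p = 0.19) and DLEU2 by 1.16 ± 0.32 (SE; limma adjusted p = 0.19). BANCR differed by -0.81 ± 0.28 (SE; limma adjusted p = 0.249) and MIR7-3HG by 0.75 ± 0.33 (SE; limma adjusted p = 0.339). MALAT1, not among the 4, differed by 0.38 ± 0.26 (SE; limma adjusted p = 0.536). All of these fall short of the adjusted threshold. Both hairpins gave the same direction at DLEU2, with 1.21 for #1 and 1.12 for #2.

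An alternative of the same fit lets the prior spread follow the mean score (limma-trend). It called 9 loci at lncRNA gene ends higher and 15 lower at an adjusted p of 0.05, beside 0.811% and 0.921% of all loci. The loci named here were chosen after their values were seen. At LINC01101 the scores were 69.0, 46.5, 48.4 and 34.5 with shHNRNPU and 15.3 and 15.7 with shLUC, a difference of 1.58 ± 0.25 (SE; limma-trend adjusted p = 0.000237). At LOC112268218 they were 78.4, 71.2, 59.9 and 62.7 against 36.3 and 33.0, and at LINC01549, whose promoter is printed above, 19.7, 11.5, 12.5 and 21.5 against 4.90 and 4.75. In the other direction, LOC107986285 scored 11.4, 9.73, 5.50 and 14.4 against 32.0 and 31.3, a difference of -1.79 ± 0.37 (SE; limma-trend adjusted p = 0.005). SKOR1-AS1, antisense to the gene of a SKI-family corepressor, scored 19.1, 12.7, 14.1 and 17.0 against 40.7 and 34.6. At each of these 5 loci the groups did not overlap and both hairpins gave the same direction, while the fit with a constant prior left all of them above an adjusted p of 0.05.

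**Figure D5:**
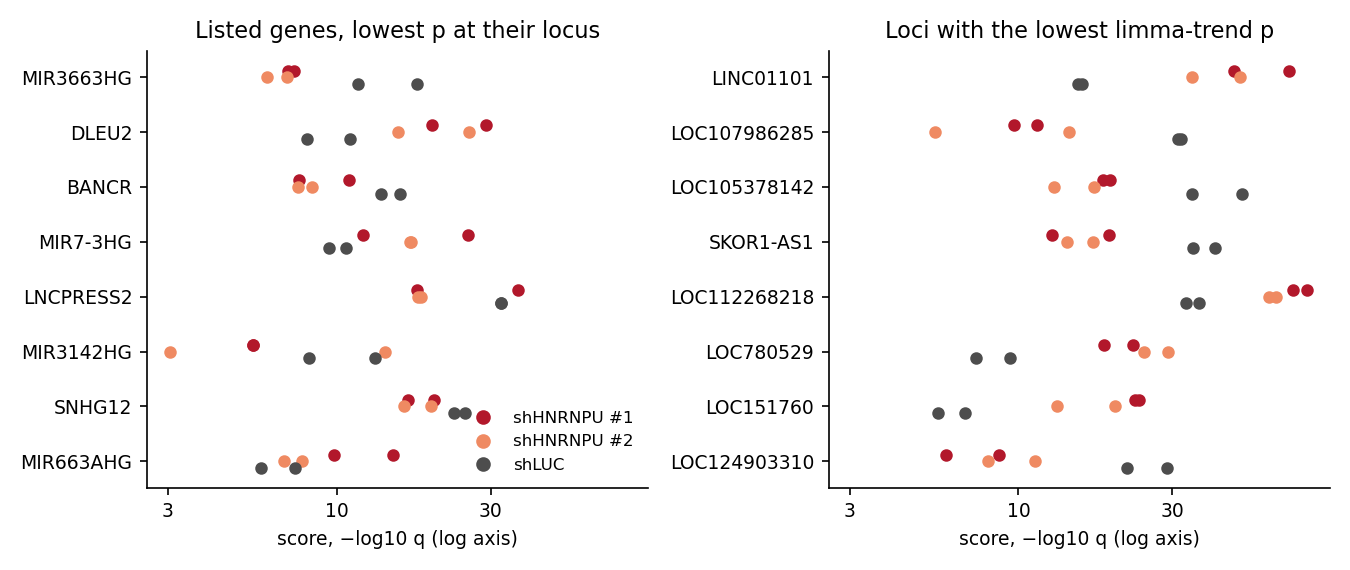
Scores (−log10 q, log axis) of 6 libraries at the locus of the 8 listed genes with the lowest p (left) and at the 8 loci with the lowest p in limma-trend (right); each point is 1 library, coloured by hairpin. At DLEU2 the shHNRNPU points lie at 15.5 to 29.1 and the shLUC points at 8.09 and 11.0, and at LINC01101 the groups are 34.5 to 69.0 and 15.3 to 15.7.

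At the border of the rule the values changed little. The 460 summits between 1900 and 2000 bp of a lncRNA gene end had a median score of 6.03, and the 444 between 2000 and 2100 bp one of 6.10. The 2874 summits within 100 bp of an end had a median score of 10.6.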

How the data were processed

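ATAC-seq libraries of H1 cells (2 each for shHNRNPU #1, shHNRNPU #2 and shLUC) were grouped by sample title. The paper linked to the series describes other, mouse data and was used for style only. The authors deposited 1 list of summits per library with a score, read here as a −log10 q-value from the layout and the lowest values, called per library and not normalised between libraries. Per the labels, the processing notes name cutadapt, Bowtie2, SAMtools, MACS2 and deepTools and the build hg38. Versions and settings are not given in the sources used here, nor is whether reads were shifted for Tn5. Depth is unknown, so a missing summit carries no limit of detection.

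Gene ends came from the RefSeq table of GRCh38.p14 (18303 lncRNA and 20033 protein-coding genes, no strand), and strand and sequence from the RefSeq promoter table, which covers 62.6% of the lncRNA genes and several starts for some. Loci were built by taking the summit of highest percentile, absorbing those within 250 bp, and repeating. Means were compared with exact permutation tests, two-sided. Scores were fitted with limma 3.58.1 (R 4.3.3; 3 group means, 3 residual and 6.18 prior degrees of freedom). Scripts used Python 3.11.15, numpy 2.4.6, pandas 2.3.3, scipy 1.17.1 and matplotlib 3.10.9, and were tested on simulated data.

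The members and gene lists were chosen with earlier results of these data known. Named genes were list genes with a summit of the rule, the 10 with the highest lowest percentile among those open in all 6, and the 10 each open only in shLUC or only in shHNRNPU by the same measure. Alternatives were lncRNA distances of 500 and 1000 bp, exclusion to 5000 bp, autosomes only, a score minimum of 5, equal list sizes, each library left out, a replicate block, no summit of a lacking library within 3000 bp of the gene end, other scalings, match distances of 100 and 500 bp, limma-trend and 2 groups. Scores above each list's median were added after seeing the data.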

Additional observations from a re-analysis of the deposited data

Results flagged for a closer look

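Of 74 measures of single genes or libraries checked for a value apart from its group, 3 stood apart by Dixon's test at 95%, where chance alone gives about 1 in 20, or 3.7. MIR155HG, the host of an immune-cell microRNA, stood at percentile 62.1 in shHNRNPU #1 repeat 2 and at 73.0 to 74.2 in the other shHNRNPU libraries. LOC105372309 stood at 98.8 in shHNRNPU #2 repeat 2 against 99.6 to 99.7 in the others. LOC105377668, open with shHNRNPU only, stood at 59.8 in shHNRNPU #1 repeat 2 against 40.0 to 43.2.

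At LINC02606 both shHNRNPU #1 libraries had a higher percentile than the shLUC mean and both #2 libraries a lower one, by 0.31 and -0.53 on average, a gap of 0.835 percentile points. The gap in percentiles was not tested, and the limma contrast of the scores at this locus, hairpin #1 minus hairpin #2, was 0.34 on the log2 scale (limma adjusted p = 0.985).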

How the results depend on the processing

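The share of summits at lncRNA gene ends stayed higher in every shHNRNPU library under every setting run. The difference in lncRNA genes per library changed sign to 31.75 at a score of at least 5, 79.5 with lists of one size, 19.75 at 500 bp, 9.5 at 1000 bp and 74.2 without shHNRNPU #2 replicate 2 (leaving out 1 library gave -86.5 to 74.2). The difference in median percentile changed sign to 0.041 with lists of one size, 1.05 at 500 bp and 0.871 at 1000 bp. At 500 bp, 769 genes were open in all 6, 24 in shLUC only and 26 in shHNRNPU only. At 1000 bp, the last 2 counts were 34 and 34. With scores above each list's median they were 817 open in all 6 and 33 in shHNRNPU only. Fewer summits enter at these settings by construction. Leaving out 1 library gave 1546 to 1600 genes open in all libraries left, 65 to 273 in shLUC only and 66 to 141 in shHNRNPU only. A condition is dropped each time, so these counts can only stay or rise. Leaving out genes with any summit of a lacking library within 3000 bp of the gene end gave 48 in shLUC only and 42 in shHNRNPU only. The limma count of 0 became 24 with limma-trend and stayed 0 in the other settings run. The cause was not tested.

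Repeat numbers did not pair the samples: correlations of same-numbered deviations ran from -0.0352 to -0.000449. With the replicate block, the limma count was 0, and the smallest p over the 9 within-repeat assignments was 0.222, which the share of summits reached. Unknown depth limits every statement on absent summits.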

Other observations

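Some summits at lncRNA gene ends also lay within 2000 bp of an end of another kind of gene. Of the 16207, 837 (5.16%) did so for pseudogenes, 196 (1.21%) for tRNA genes, 140 (0.864%) for microRNA genes and 63 (0.389%) for snoRNA genes, beside 2.89%, 0.482%, 0.739% and 0.206% of all summits. No test was made of these shares.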
